A study of Mus musculus with 6 samples.

Results

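Semaphorins and their receptors, the plexins and neuropilins, were examined in the embryonic mouse cortex at E13.5, with Ybx1 intact or conditionally deleted. The members were defined by gene symbol, as every classical vertebrate semaphorin of classes 3 to 7, every plexin and both neuropilins in the table. The choice was made with earlier results of these data known. There were 31 of 17348 genes, of which 20 were ligands (semaphorins) and 11 were receptors (9 plexins and 2 neuropilins). RNA from dissected cortex was sequenced from 3 WT and 3 Ybx1 cKO libraries. The cKO embryos carried Nestin-Cre and Ybx1 fl/fl, so that the floxed part of Ybx1 is lost where Nestin drives Cre, in neural progenitors and the cells they give rise to. Endothelium and microglia in the dissected tissue arise from other lineages. The WT embryos were control littermates. The controls of the study at large were Ybx1 fl/fl embryos without Cre, and for these libraries the labels give WT only.

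Semaphorins are secreted or membrane-bound guidance proteins. Class 3 semaphorins are secreted and mostly bind a neuropilin, which holds the ligand, whereas a plexin in the same complex carries the signal into the cell. Semaphorins of classes 4 to 7 are tethered to the membrane and bind plexins directly. In the embryonic cortex these pairs are known for steering growing axons, for the radial migration of young neurons, for guiding interneurons that arrive from the ventral forebrain, and for patterning blood vessels.

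The promoters of 3 receptors are shown. Nrp2 was the receptor with the lowest p-value between the genotypes, and Plxnb1 and Plxnb3 are paralogs of which the former was expressed in this tissue and the latter was practically absent. Each run is the RefSeq window of GRCm38.p6 from 250 bases before to 50 bases after a transcription start, on the plus strand, with CG dinucleotides in capitals. A CG reads the same on both strands. The windows lie at chr1:62703067-62703366 for Nrp2, chr9:109095186-109095485 for Plxnb1 and chrX:73756853-73757152 for Plxnb3. The Plxnb1 and Plxnb3 windows lie inside their genes, which begin at chr9:109093849 and chrX:73756556. They therefore do not cover the outermost start of either gene.

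Nrp2: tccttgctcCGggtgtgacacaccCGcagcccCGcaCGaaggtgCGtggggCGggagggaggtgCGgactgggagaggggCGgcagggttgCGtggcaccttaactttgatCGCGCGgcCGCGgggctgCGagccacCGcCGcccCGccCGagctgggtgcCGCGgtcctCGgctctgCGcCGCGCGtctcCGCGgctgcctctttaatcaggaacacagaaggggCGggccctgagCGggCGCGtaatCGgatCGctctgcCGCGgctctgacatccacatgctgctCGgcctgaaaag
Plxnb1: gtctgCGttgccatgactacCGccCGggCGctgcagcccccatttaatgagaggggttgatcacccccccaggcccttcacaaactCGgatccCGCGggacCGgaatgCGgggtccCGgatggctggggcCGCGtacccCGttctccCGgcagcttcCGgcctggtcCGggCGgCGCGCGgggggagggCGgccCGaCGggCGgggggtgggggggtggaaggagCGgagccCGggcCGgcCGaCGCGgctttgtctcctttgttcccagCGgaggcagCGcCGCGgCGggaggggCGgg
Plxnb3: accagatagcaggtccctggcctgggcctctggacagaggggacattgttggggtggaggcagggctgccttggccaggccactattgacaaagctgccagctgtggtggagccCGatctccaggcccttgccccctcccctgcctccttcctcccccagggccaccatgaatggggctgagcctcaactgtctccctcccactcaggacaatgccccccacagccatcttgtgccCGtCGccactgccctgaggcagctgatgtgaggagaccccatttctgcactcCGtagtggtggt

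The Nrp2 window held 37 CG dinucleotides, a number reached by 5.58% of 32851 windows of the same length. The Plxnb1 window held 36, reached by 6.23% of all windows. The Plxnb3 window held 4, and 38.0% of all windows held that number or fewer. The median window held 7. RefSeq windows were matched for 26 of the 31 members, 37 windows in all. Of these, 22 held 14 or more CG dinucleotides, beside 36.3% of all windows.

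The libraries held between 15907486 and 16282921 estimated counts. Ybx1 itself, given as CPM (counts scaled to a common library total with TMM factors), was 1021, 528 and 1220 in WT replicates 1 to 3 and 83.1, 117 and 147 in cKO replicates 1 to 3. The library labelled WT replicate 2 therefore goes partly against its label. In cKO replicate 3, which stood apart from the other libraries, the summed marker genes of meninges and fibroblasts reached 518 CPM against 8.36 to 17.1 in the other 5 libraries, and those of epidermis reached 261 CPM against 10.04 to 11.9. The libraries numbered 1 differed from those numbered 2 and 3 in both genotypes. Their cortical neuron markers summed to 5137 and 5292 CPM against 4097 to 4756, and their radial glia markers to 1809 and 1772 CPM against 2372 to 2629. The series text speaks of 3 sequencing batches but does not say which libraries shared one. Markers of cortical neurons, radial glia and intermediate progenitors were present in all 6 libraries.

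Which ligands and receptors the E13.5 cortex expresses was read from TPM, a share of transcripts corrected for length, so that levels of different genes can be set side by side. A member was counted as expressed at a TPM of at least 1 in all 6 libraries. By this rule 27 of the 31 members were expressed, 17 of 20 ligands and 10 of 11 receptors. Sema3b, Sema3d, Sema3e and Plxnb3 were not. Among the receptors, Plxna2, a receptor for class 6 semaphorins, had the highest WT mean, 167 ± 39.0 TPM (SD, n = 3), followed by Plxnb2, a receptor for class 4 semaphorins, at 124 ± 20.3. These overlapped with each other and lay above the rest. Plxna3 (79.3 TPM), Plxnb1 (77.8), Plxna1 (60.3), Plxna4 (54.8), Plxnd1 (52.5) and Nrp1 (49.3) formed a run in which each gene's WT range overlapped that of the next. Nrp2 followed at 29.1 ± 3.94 TPM (SD, n = 3) and Plxnc1 at 10.3 ± 1.37, each outside the WT ranges of its neighbours in the order. Plxnb3 was practically absent, with estimated counts of 1, 2 and 0 in WT and 0, 1 and 1 in cKO. Those values lie below the 3 counts of a library that a count of 0 allows, 0.181 to 0.188 CPM.

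Among the ligands the membrane-bound classes led. Sema6d had the highest WT mean, 82.5 ± 19.2 TPM (SD, n = 3). Sema4g (56.5 TPM), Sema5b (55.4), Sema5a (53.5), Sema4c (49.5), Sema6c (43.7), Sema7a (33.0) and Sema4b (24.5) followed, and the secreted ligands began below them with Sema3c (22.6), beside Sema4d (22.6), Sema3f (15.9) and Sema3a (15.8). From Sema6d down to Sema3a every neighbouring pair overlapped in WT, so the order of neighbours is not fixed by these libraries. Genes further apart in this run could be separate. The WT range of Sema6d (61.23 to 98.61 TPM) lay wholly above that of Sema3a (13.96 to 17.54 TPM). A gap without overlap separated Sema3a from Sema6a (11.9 TPM), Sema6b (9.57) and Sema4f (8.08), and further gaps set off Sema4a (4.90) and Sema3g (1.86). Sema3e, Sema3b and Sema3d lay between 0.48 and 0.65 TPM and overlapped.

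**Figure D1:**
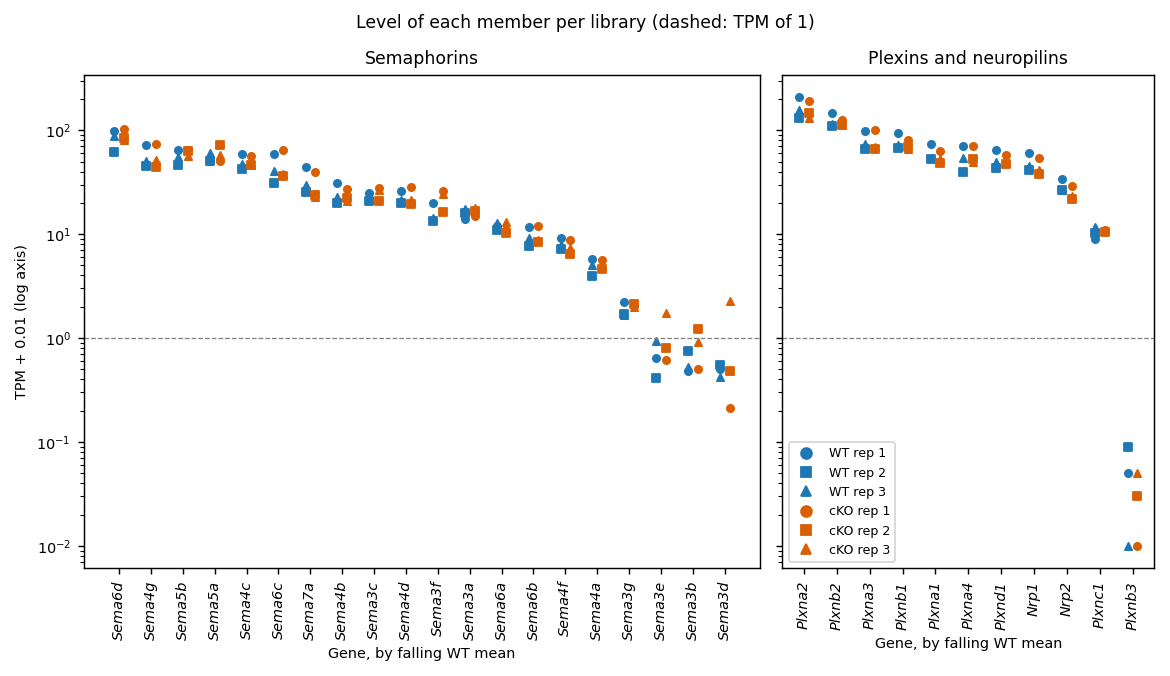
TPM of each of the 31 members in each library (log axis, 0.01 added so that 0 can be drawn), with semaphorins on the left and plexins and neuropilins on the right, ordered by the WT mean. Blue marks are WT and orange marks cKO, shapes are replicate numbers, and the dashed line is a TPM of 1. Sema3b, Sema3d, Sema3e and Plxnb3 have marks below the line, and the single high mark of Sema3d is cKO replicate 3.

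Of 23 ligand and receptor pairs known from textbook knowledge, 19 were expressed on both sides. Sema3a with Nrp1 and Plxna1 or Plxna4, the pair for axon repulsion by a secreted ligand, was present at 15.8 TPM for the ligand and at least 49.3 TPM for its receptors. Sema6a with Plxna2 or Plxna4, Sema4c and Sema4g with Plxnb2, Sema4d with Plxnb1 or Plxnb2, and Sema7a with Plxnc1 were also present. The 4 pairs not expressed were Sema3b with Nrp2, Sema3d with Nrp1, Sema3e with Plxnd1 and Sema5a with Plxnb3. In the first 3 of these the ligand was the part below the limit, whereas the receptor was present at 29.1 TPM or more. For Sema5a it was Plxnb3 that was lacking, and its other listed receptors Plxna1 and Plxna3 were expressed.

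Ligands were then set against receptors. The 20 ligands summed to 607, 426 and 507 TPM in WT replicates 1 to 3 and to 617, 500 and 504 in the cKO replicates. The 11 receptors summed to 861, 592 and 659 TPM in WT and to 787, 611 and 605 in cKO. Both sums overlapped between the genotypes and were highest in the libraries numbered 1. Ligand TPM per receptor TPM was 0.704, 0.719 and 0.770 in WT and 0.784, 0.818 and 0.833 in cKO, so that every cKO library lay above every WT library. The means were 0.731 ± 0.034 and 0.812 ± 0.025 (SD, n = 3 each). The gap between the nearest libraries, WT replicate 3 and cKO replicate 1, was smaller than either SD. The same quotient from summed CPM overlapped, with 0.411 to 0.479 in WT and 0.457 to 0.523 in cKO. These quotients are a description and carry no test.

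**Figure D2:**
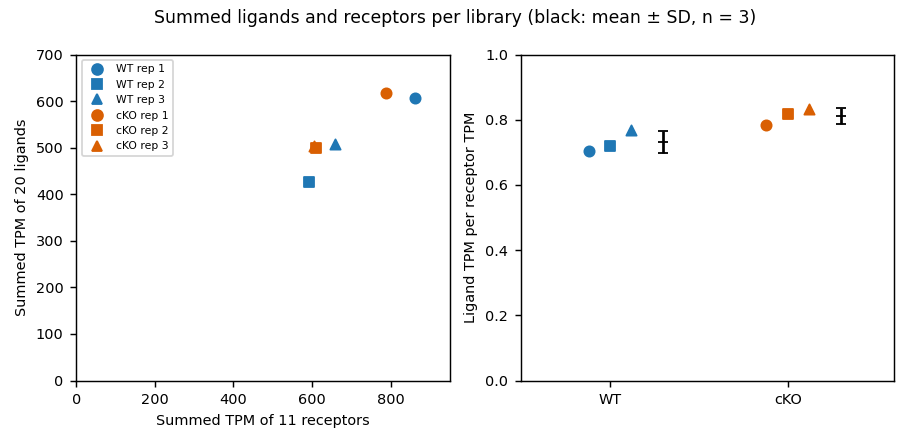
Left, summed TPM of the 20 ligands against summed TPM of the 11 receptors, 1 mark per library. Right, their quotient in each library, with the mean and SD of 3 libraries per genotype in black. The 3 cKO quotients (0.784 to 0.833) lie above the 3 WT quotients (0.704 to 0.770), while both sums overlap.

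Gene by gene, none of the members passed the test between the genotypes. After Benjamini-Hochberg adjustment over all 13340 genes tested, edgeR's quasi-likelihood test called 0 members of the 30 tested and 0 genes in all, that is 0% of genes. The deleted gene Ybx1 was not called either, although each of its cKO libraries lay below each WT library. Its difference was -3.00 (SE 0.33) on the log2 scale, with adjusted p = 0.128 in this edgeR test. A member that was not called is therefore not shown to be unchanged. Plxnb3 had too few counts to be tested. The lowest adjusted p-value of a member was 0.99995. At an unadjusted p-value under 0.05, 1 member was higher (Sema3f) and 1 was lower (Nrp2), beside 1.75% of all genes higher and 1.81% lower. In DESeq2, 4 genes and 0 members were called. In none of the members did every cKO library lie above every WT library, which 4.21% of all genes did, nor below, which 4.83% did. The ligands had a median log2 fold change of 0.06 (cKO minus WT), with 15 of 20 positive. The receptors had a median of -0.09, with 8 of 10 tested negative. Over all genes tested the median was 0.0019. The signs of these medians depended on single libraries. Without the library labelled WT replicate 2 the ligand median was -0.037, with cKO replicate 3 left out as well it was -0.0070, and without WT replicate 1 the receptor median was 0.0044. Standard errors of single members ran from 0.095 to 0.76 on the log2 scale.

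**Figure D3:**
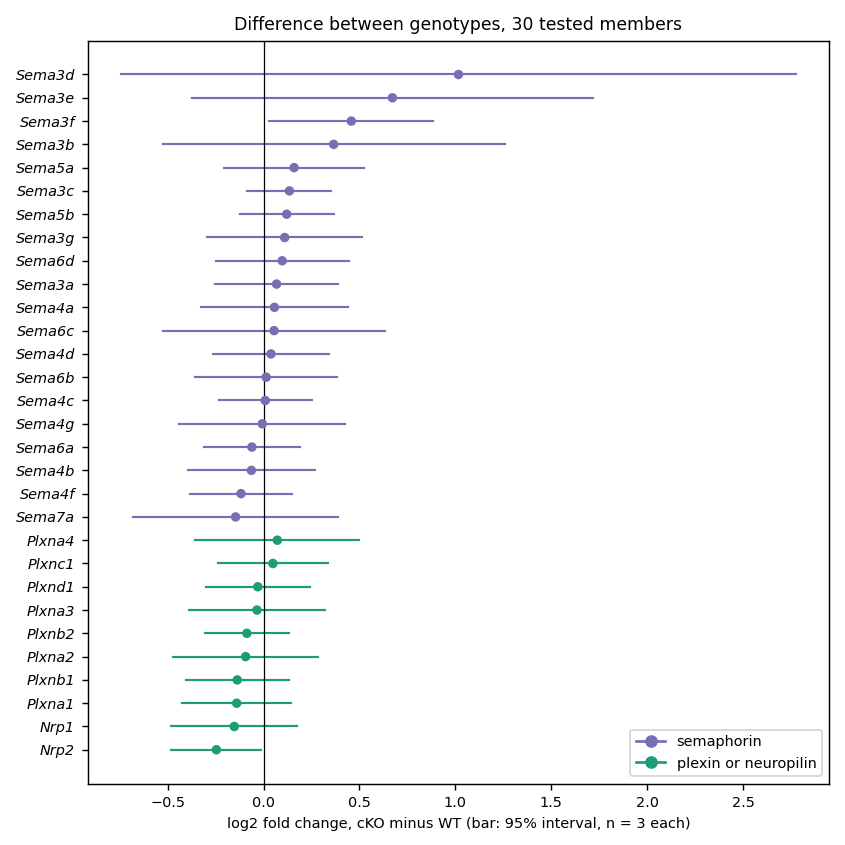
log2 fold change (cKO minus WT) of the 30 tested members with its 95% interval from the edgeR fit on 3 libraries per genotype, semaphorins in purple and plexins and neuropilins in green. All intervals include 0 except those of Sema3f (0.030 to 0.88) and Nrp2 (-0.48 to -0.011), and neither passed after adjustment.

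Sema3f, a secreted repellent that binds Nrp2, had the lowest p-value of the members. The gene (Entrez 20350) lies at chr9:107681499-107710475 in GRCm38.p6. Its level was 30.2, 21.4 and 22.5 CPM in WT replicates 1 to 3 and 38.5, 25.9 and 37.2 CPM in the cKO replicates. The means were 24.7 ± 4.77 and 33.9 ± 6.93 CPM (SD, n = 3 each). The cKO replicate 2 lay below WT replicate 1, so the groups overlapped. Within each replicate number the cKO library was the higher one, but the numbers were not taken as pairs. The log2 fold change was 0.46 (SE 0.18), a 1.37-fold difference, with an unadjusted p of 0.0387 and an adjusted p of 0.99995 in edgeR's test.

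Nrp2, the neuropilin that holds Sema3f and other class 3 ligands, was the receptor with the lowest p-value. The gene (Entrez 18187) lies at chr1:62703317-62818692, and the promoter window printed above spans its start. Its level was 94.0, 82.0 and 80.9 CPM in WT and 82.0, 66.0 and 68.8 CPM in cKO. The means were 85.7 ± 7.26 and 72.3 ± 8.55 CPM (SD, n = 3 each). The groups touched, since cKO replicate 1 lay between WT replicates 2 and 3. The log2 fold change was -0.25 (SE 0.10), a ratio of 0.843, with an unadjusted p of 0.0423 and an adjusted p of 0.99995 in edgeR's test.

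Both p-values moved to either side of 0.05 as single libraries were left out. In edgeR's test the unadjusted p of Sema3f was 0.125 when the library labelled WT replicate 2 was left out, 0.116 without WT replicate 3, 0.107 without cKO replicate 1 and 0.103 without cKO replicate 3, whereas it was 0.0115 without WT replicate 1 and 0.0060 without cKO replicate 2. That of Nrp2 was 0.143 without WT replicate 1, 0.0549 when the library labelled WT replicate 2 was left out, 0.0518 without WT replicate 3, 0.139 without cKO replicate 2 and 0.115 without cKO replicate 3, whereas it was 0.0051 without cKO replicate 1. Both signs were kept throughout the 17 alternative fits, where the log2 fold change of Sema3f ran from 0.29 to 0.63 and that of Nrp2 from -0.34 to -0.17. Set against each other, Sema3f TPM per Nrp2 TPM was 0.598, 0.501 and 0.529 in WT and 0.892, 0.737 and 1.04 in cKO. This quotient was chosen after the values were seen and is a description without a test. Nrp1 TPM per Nrp2 TPM overlapped, with 1.56 to 1.81 in WT and 1.71 to 1.87 in cKO.

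Marker lists of 2 further cell types are set beside these values. Those of meninges and fibroblasts and of epidermis were high in cKO replicate 3, as given above. The Cajal-Retzius list (5 genes, all tested, none at 0 in any library) summed to 518, 429 and 426 CPM in WT and to 426, 328 and 320 CPM in cKO. The groups overlapped narrowly, at 426.0 CPM in WT replicate 3 and 426.1 CPM in cKO replicate 1. The sum was highest in the library numbered 1 of each genotype, a pattern that 25.2% of all genes showed. Reln alone made up 468, 387 and 383 CPM of these sums in WT and 382, 291 and 284 CPM in cKO, so the sum is nearly that of 1 gene. Of this list 1 of 5 genes was lower at the unadjusted threshold, beside 1.81% of all genes, and 0 passed after adjustment. The gene was Reln, the guidance protein these cells secrete, with a log2 fold change of -0.37 (SE 0.14, unadjusted p = 0.0250 in edgeR). Trp73, Lhx1 and Lhx5 had log2 fold changes of -0.29, -0.18 and -0.40, and Calb2 had a positive one of 0.12. The list for interneurons and ventral forebrain (14 genes, 11 tested, Isl1 at 0 in WT replicate 1) summed to 106, 102 and 160 CPM in WT and to 180, 201 and 186 CPM in cKO, without overlap. The highest sum was in WT replicate 3 among the WT libraries and in cKO replicate 2 among the cKO libraries, where Sema3f was at 22.5 and 25.9 CPM. Of its genes 6 of 11 were higher at an unadjusted p under 0.05, beside 1.75% of all genes, and 0 passed after adjustment. The part of these cells in the values of Sema3f and Nrp2 was not tested. In bulk tissue, fewer cells of a type and less RNA per cell cannot be told apart.

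**Figure D4:**
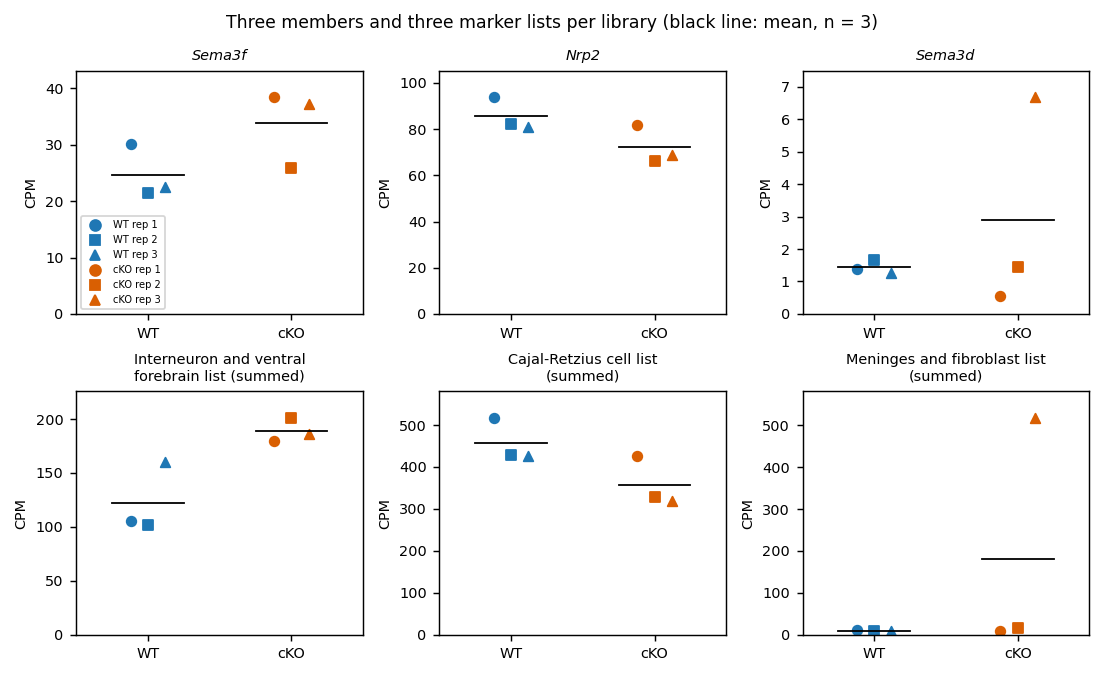
CPM of Sema3f, Nrp2 and Sema3d in the top row and summed CPM of 3 marker lists in the bottom row, 1 mark per library, with the mean of 3 libraries as a black line. Sema3f is higher and Nrp2 lower in the cKO mean with overlapping libraries, and the high Sema3d value is in cKO replicate 3, where the meninges and fibroblast list reaches 518 CPM.

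The remaining secreted ligands were lower in level or closer to no difference. Sema3c, a ligand of Nrp1 and Nrp2 with Plxnd1, was at 52.5, 48.6 and 49.8 CPM in WT and at 59.2, 48.0 and 58.3 CPM in cKO (log2 fold change 0.13, SE 0.095, unadjusted p = 0.194 in edgeR). Its lowest library was a cKO one and its 2 highest were cKO too. Sema3d was at 1.38, 1.67 and 1.25 CPM in WT and at 0.56, 1.44 and 6.70 CPM in cKO, that is 22, 27, 20, 9, 23 and 111 estimated counts. One library thus made its log2 fold change of 1.02 (SE 0.76, unadjusted p = 0.219 in edgeR), which was -0.52 without cKO replicate 3. Sema3e, the ligand of Plxnd1, was at 1.88, 1.3 and 2.94 CPM in WT and at 1.81, 2.57 and 5.37 CPM in cKO, and it too was highest in cKO replicate 3 (log2 fold change 0.67, SE 0.45, unadjusted p = 0.176 in edgeR). Without that library its log2 fold change was 0.10.

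In that library 5 of 9 genes of the meninges and fibroblast list and 7 of 8 of the epidermis list were at their highest. Krt5, a keratin of basal epidermis, was at 130 CPM there and at 0 in 4 of the other libraries. Slc6a13, a marker of meninges, was at 0 in 4 of the 6 libraries, that one among them, and at no more than 0.126 CPM in any. Foxc1, Foxd1 and Aldh1a2 of the same list were not at their highest there. The part of such cells in the values of Sema3d and Sema3e was not tested. Sema3a, Sema3b and Sema3g had log2 fold changes of 0.07, 0.37 and 0.11 with unadjusted p-values of 0.371 to 0.636 in edgeR.

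Among the membrane-bound ligands, Sema6d, a ligand of Plxna1, was at 266, 181 and 253 CPM in WT and at 280, 244 and 225 CPM in cKO. The library labelled WT replicate 2 was the low one, and the cKO libraries lay inside or just above the WT range (log2 fold change 0.10, SE 0.15). Sema5a, a ligand with both attractive and repulsive actions, was at 235, 256 and 301 CPM in WT and at 241, 364 and 279 CPM in cKO, with cKO replicate 2 as the only library above all WT libraries (0.16, SE 0.16). Sema5b was at 126, 99.7 and 116 CPM in WT and at 126, 135 and 111 CPM in cKO (0.12, SE 0.11). Its groups overlapped.

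Of the class 4 ligands of B plexins, Sema4g was at 132, 90.9 and 99.4 CPM in WT and at 135, 87.4 and 98.8 CPM in cKO. Each cKO library was close to the WT library of the same number, and the log2 fold change was -0.0065 (SE 0.19). Sema4c was at 100.25, 78.3 and 87.3 CPM in WT and at 97.7, 87.0 and 82.8 CPM in cKO (0.0090, SE 0.11), with a 95% interval of -0.23 to 0.25. Sema4f, at 15.6, 13.6 and 14.3 CPM in WT and at 14.98, 12.1 and 13.1 CPM in cKO, had a log2 fold change of -0.12 (SE 0.12). Sema4a, Sema4b, Sema4d, Sema6a, Sema6b, Sema6c and Sema7a lay between -0.15 and 0.06. The widest intervals among these 7 were those of Sema6c, from -0.52 to 0.63, and of Sema7a, the lipid-anchored ligand of Plxnc1, from -0.68 to 0.39.

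The receptors of highest level showed small negative differences with intervals that included 0. Plxna2 was at 1017, 705 and 825 CPM in WT and at 946, 770 and 672 CPM in cKO (log2 fold change -0.09, 95% interval -0.47 to 0.29). Plxnb2 was at 416, 341 and 346 CPM in WT and at 363, 344 and 331 CPM in cKO (-0.09, -0.31 to 0.13). Plxna3, the plexin through which Sema3f acts with Nrp2, was at 275, 207 and 227 CPM in WT and at 283, 204 and 206 CPM in cKO (-0.03, -0.39 to 0.32). In all 3 the highest library of each genotype was the one numbered 1.

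Plxna1, a plexin for several ligand classes, was at 293, 229 and 228 CPM in WT and at 254, 206 and 221 CPM in cKO (log2 fold change -0.14, 95% interval -0.42 to 0.14). Plxnb1, the receptor for Sema4d, was at 349, 267 and 283 CPM in WT and at 295, 275 and 248 CPM in cKO (-0.14, -0.40 to 0.13). Nrp1, which holds Sema3a and also binds VEGF in endothelium, was at 155, 116 and 124 CPM in WT and at 141, 104 and 111 CPM in cKO (-0.15, -0.48 to 0.18). Compared number by number, Nrp1 was lower in all 3 cKO libraries, but the groups overlapped and the numbers were not taken as pairs. Plxna4, Plxnc1 and Plxnd1 had log2 fold changes of 0.07, 0.05 and -0.03. The exons of Plxna1, Plxna4, Plxnb1 and Sema4c overlap a transcript on the opposite strand in GENCODE M21, and those of Nrp1, Plxnc1 and Sema4a overlap one on the same strand. Whether counting used strand is not given in the sources used here, so reads of these pairs may not be told apart.

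The members shared a pattern across libraries that crossed the genotypes. For 21 of 30 tested members the library numbered 1 was the highest of its genotype in both WT and cKO, which held for 25.2% of all genes. These were 12 of 20 ligands and 9 of 10 receptors. For 5 members (Sema3a, Sema3b, Sema5a, Sema6a and Plxnc1) it was the lowest in both, which held for 26.8% of all genes. Sema6c showed the widest difference among the 21, with 99.0, 56.3 and 71.6 CPM in WT and 106.6, 64.9 and 64.2 CPM in cKO, 0.68 higher on the log2 scale in the libraries numbered 1 than in the others. Sema7a was 0.62 higher and Sema4g 0.51 higher on the same scale. Nrp2 and Sema3f belonged to the same 21 members, at 0.24 and 0.38.

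The neuron and radial glia markers given above moved with the same libraries, and GC content went with the pattern in part. The 21 members had a median transcript GC content of 56.8%, and the 5 members lowest in those libraries had 49.3%. The 4 members of neither pattern had 49.1%. The ranges overlapped widely, from 43.5% to 63.1% in the 21 members and from 45.3% to 59.5% in the 5. Over the 30 tested members, the log2 difference of the libraries numbered 1 from the others had a Pearson r of 0.61 and a Spearman rho of 0.42 with GC content. These describe genes measured in the same 6 libraries and carry no p. Sema3d and Sema3e, both of low counts, entered with GC contents of 40.3% and 42.0% and log2 differences of -1.16 and -0.52. Over all genes tested with a GC value the rho was 0.30. The members' median GC content was 55.6% and their median transcript length 3970 bases, beside 51.0% and 2369 bases over all genes tested. The part of cell makeup and of GC content in the pattern was not tested.

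**Figure D5:**
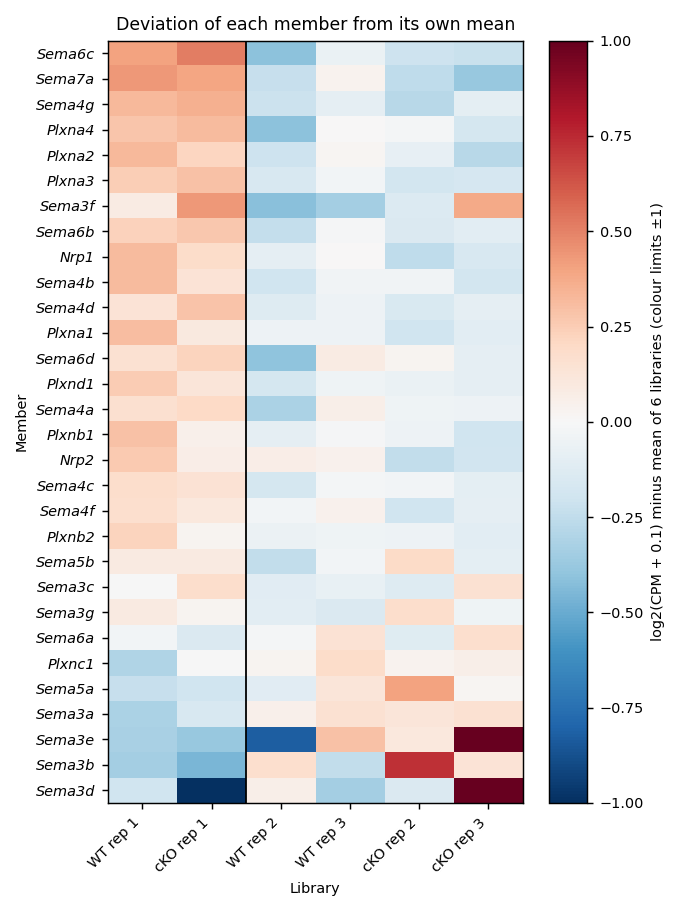
log2(CPM + 0.1) of the 30 tested members minus each member's mean over 6 libraries, red above and blue below, with the libraries numbered 1 to the left of the black line. Colours stop at -1 and 1, and members run from the most raised to the most lowered in the libraries numbered 1. Most members are red in both libraries numbered 1, and Sema3d and Sema3e are strongly red in cKO replicate 3.

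The other genes of the pathway were taken as a list of 38, all tested: co-receptors and other receptors, the other ligands of neuropilins, and signal transducers below the plexins. At an adjusted p-value under 0.05 in edgeR 0 were called. At an unadjusted p under 0.05, 2 were higher and 0 were lower, again beside 1.75% and 1.81% of all genes. The median log2 fold change was -0.0095, with 17 positive and 21 negative. In 3 of the 38 (Rras, Sh3bp1 and Vegfc) every cKO library lay above every WT library, beside 4.21% of all genes. In 2 (Mical1 and Arhgef12) every cKO library lay below, beside 4.83%. Mical1 was at 35.9, 34.5 and 34.8 CPM in WT and at 33.3, 32.4 and 31.6 CPM in cKO (log2 fold change -0.11). Arhgef12 was at 212.9, 207.3 and 208.4 CPM in WT and at 206.7, 198.0 and 201.7 CPM in cKO (-0.05).

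Both of the genes higher at the unadjusted threshold were among the 25 signal transducers. Rras, a small GTPase whose activity plexins restrain, was at 4.27, 5.14 and 4.31 CPM in WT and at 5.43, 7.09 and 6.70 CPM in cKO, without overlap (log2 fold change 0.48, SE 0.17, unadjusted p = 0.0211 in edgeR). Sh3bp1, a GTPase-activating protein that associates with Plxnd1, was at 7.10, 7.19 and 7.31 CPM in WT and at 9.30, 7.97 and 10.9 CPM in cKO, also without overlap (0.38, SE 0.14, unadjusted p = 0.0288 in edgeR). Of the 4 other neuropilin ligands 0 passed at an unadjusted p under 0.05. Vegfa and Vegfc, growth factors of blood and lymph vessels, had log2 fold changes of 0.16 and 0.19 with unadjusted p-values of 0.113 and 0.141 in edgeR. Of the 9 co-receptors and other receptors 0 passed, and Erbb2 (0.16, unadjusted p = 0.186 in edgeR) and Itgb1 (0.12, unadjusted p = 0.253) had the lowest p-values.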

How the data were processed

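RNA from E13.5 cortex was measured in 3 WT and 3 cKO libraries, grouped by their titles. Trizol was used for extraction, followed by mRNA library preparation and DNBSEQ sequencing, and the submitters' processing notes name GRCm38 (mm10), HISAT2 2.2.1, Bowtie2 2.4.5 and RSEM 1.3.1. The gene annotation and the strand setting are not given in the sources used here. Estimated counts, as deposited, were not scaled for depth, and TPM, as deposited, was corrected for transcript length and scaled by the authors to a common sum. Deposited group averages and FPKM were not used. Of the estimated counts, 10.95% were not whole, and all were rounded. At most 1.66% of genes had equal counts in 2 libraries.

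Genes were kept by filterByExpr (minimum count 10, minimum total count 15) and tested with edgeR 4.0.16 in R 4.3.3 (TMM, glmQLFit and glmQLFTest, genotype as the only term), with Benjamini-Hochberg adjustment over 13340 genes and a threshold of 0.05. The common dispersion was 0.0169. SE is the log2 fold change divided by the square root of F, and intervals are at 95%. The limit for a count of 0 is 3 counts of the library and covers counting error only. The study's methods describe 3 independent replicate experiments. Members and lists were chosen with earlier results of these data known. Every member is named, and values per library are given for the members among the 10 lowest p-values and for the 5 ligands and 5 receptors of highest TPM, as well as for Sema6c. Of the pathway list, genes at an unadjusted p under 0.05, those without overlap between the genotypes and the 2 of lowest p in each sublist are named. Marker lists of endothelium (55.8 to 80.2 summed CPM over the 6 libraries), pericytes (47.8 to 78.9), intermediate progenitors (1004 to 1287) and microglia (17.9 to 30.0) were also summed. The script was tested on simulated data. The alternatives were RLE factors, no filter, DESeq2 1.42.0, limma-voom (limma 3.58.1), limma on log2(TPM + 1) and log2(TPM + 0.1), the replicate block, each library left out, and other TPM limits. Leaving out both libraries numbered 1, a GC correction (loess, span 0.3, GENCODE M21, GC for 97.3% of genes) and the block with it were added after the data were seen. Gene positions and promoters are from RefSeq (GRCm38.p6).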

Additional observations from a re-analysis of the deposited data

How the results depend on the processing

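Members called at an adjusted p-value under 0.05 stayed at 0 in all 17 alternative fits. Over all genes the count went from 0 to 4 with DESeq2, to 2 with the replicate block, to 2 without both cKO replicate 3 and the library labelled WT replicate 2, to 2 with the GC correction and to 3 with the replicate block and GC correction, and it ran from 0 to 2 with each library left out. Members higher at an unadjusted p under 0.05 went from 1 to 0 with log2(TPM + 1), with log2(TPM + 0.1) and without those 2 libraries, and ran from 0 to 2 with each library left out. Members lower went from 1 to 0 under the same 3 alternatives, to 3 with the replicate block (Nrp2, Nrp1 and Plxna1) and to 4 with the replicate block and GC correction (Plxnb1 in addition), and ran from 0 to 1 with each library left out. Same-numbered libraries shared deviations with r of 0.41, 0.31 and -0.020 over genes for numbers 1 to 3, so the numbers were not taken as pairs, and not every library correlated best with its own number. Without the same 2 libraries the log2 fold changes of Sema3d, Sema3e and Sema4c reversed to -0.39, -0.14 and -0.022. That of Sema4c was -0.026 with the GC correction and -0.027 with the replicate block and GC correction. With each library left out in turn the log2 fold change ran from -0.23 to 0.060 for Plxna2, -0.20 to 0.092 for Plxna3, -0.14 to 0.015 for Plxnb2, -0.52 to 1.52 for Sema3d, -0.073 to 0.11 for Sema4c, -0.20 to 0.17 for Sema4g, -0.023 to 0.29 for Sema5a and -0.057 to 0.20 for Sema6d. The causes were not tested. Low counts limit the values of Sema3b, Sema3d, Sema3e and Plxnb3.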
